A study of Homo sapiens with 6 samples.

Results

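The genes described here are 9 genes that define the thyroid follicular cell or carry out its hormone synthesis: the transcription factors PAX8, NKX2-1, FOXE1 and HHEX, and the hormone synthesis and signaling genes TG, TSHR, SLC5A5, DUOX1 and DIO2. They were chosen by name, and the rule that picks them uses no measured value, although earlier results of these data were known. Of the 9 genes, 6 had a row among the 31348 genes of the expression table and 3 (NKX2-1, TSHR and SLC5A5) had none. The cells were TPC1, a human papillary thyroid carcinoma line that carries a CCDC6-RET rearrangement, labelled WT in genotype. RNA sequencing compared 3 libraries of cells transfected with siSRPX2-1, a small interfering RNA against the secreted sushi-repeat protein SRPX2, and 3 libraries of cells transfected with siControl. By the study's methods RNA was isolated 36 h after transfection and the replicates were biological repeats. The labels of both groups give day 2, another culture medium than the methods, and an adipogenic treatment. All results are from 1 cell line and 1 siRNA.

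Thyroid follicular cells arise under the joint control of PAX8, NKX2-1, FOXE1 and HHEX, which together are found in no other adult cell type and which stay on in the mature gland. There PAX8 and NKX2-1 activate the genes that make thyroid hormone. TSH binds its receptor TSHR and raises cyclic AMP, the sodium/iodide symporter SLC5A5 takes up iodide, DUOX1 and its relative DUOX2 supply hydrogen peroxide, and tyrosines within thyroglobulin (TG) are iodinated and coupled. Proteases in the lysosome then release the hormone, and the deiodinase DIO2 turns the prohormone T4 into the active T3. Papillary carcinomas often lose the iodide handling genes while they keep PAX8.

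The windows upstream of 5 of these genes are shown because they stand for both ends of the measured range: PAX8, FOXE1 and HHEX passed the expression filter, and TSHR and SLC5A5 had no row. Each window is the 250 bases before the gene's RefSeq start in GRCh38.p14, written 5′ to 3′ on the gene's own strand. The GENCODE start used further below can differ, and the TSHR window lies within the GENCODE span of TSHR. The capitals mark each CG dinucleotide, the site of DNA methylation.
PAX8, chr2:113278922-113279171, minus strand: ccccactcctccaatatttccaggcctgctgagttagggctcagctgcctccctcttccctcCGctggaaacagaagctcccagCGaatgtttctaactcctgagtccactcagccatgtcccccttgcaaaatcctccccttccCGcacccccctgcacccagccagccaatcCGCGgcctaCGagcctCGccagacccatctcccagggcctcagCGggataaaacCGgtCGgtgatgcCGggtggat
FOXE1, chr9:97852976-97853225, plus strand: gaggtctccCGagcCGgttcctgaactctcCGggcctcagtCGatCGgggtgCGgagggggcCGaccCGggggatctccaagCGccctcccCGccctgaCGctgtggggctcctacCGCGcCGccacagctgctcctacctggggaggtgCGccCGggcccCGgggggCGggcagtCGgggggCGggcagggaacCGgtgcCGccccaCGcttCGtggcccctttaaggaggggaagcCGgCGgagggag
HHEX, chr10:92689705-92689954, plus strand: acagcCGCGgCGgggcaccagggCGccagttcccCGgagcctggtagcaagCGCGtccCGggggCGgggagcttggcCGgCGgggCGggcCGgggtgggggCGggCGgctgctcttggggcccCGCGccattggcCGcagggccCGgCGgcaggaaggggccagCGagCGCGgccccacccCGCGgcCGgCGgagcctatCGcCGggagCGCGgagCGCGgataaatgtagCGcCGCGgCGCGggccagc
TSHR, chr14:80955371-80955620, plus strand: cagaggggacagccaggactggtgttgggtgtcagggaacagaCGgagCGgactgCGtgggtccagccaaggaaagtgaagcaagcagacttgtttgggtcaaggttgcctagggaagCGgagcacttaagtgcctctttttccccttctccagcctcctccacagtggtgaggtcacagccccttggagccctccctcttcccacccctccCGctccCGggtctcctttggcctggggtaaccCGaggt
SLC5A5, chr19:17871695-17871944, plus strand: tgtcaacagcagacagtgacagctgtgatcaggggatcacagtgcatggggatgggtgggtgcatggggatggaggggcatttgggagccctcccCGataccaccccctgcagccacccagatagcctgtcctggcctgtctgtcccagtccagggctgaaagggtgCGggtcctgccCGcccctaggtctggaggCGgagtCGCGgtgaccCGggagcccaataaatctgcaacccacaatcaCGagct

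The windows differed widely in their CG dinucleotides, a motif that reads CG on both strands. HHEX had 38 and FOXE1 26, whereas PAX8 had 11, SLC5A5 8 and TSHR 7. Over the 35116 RefSeq windows of the same length the median was 11, with quartiles of 3 and 23, so that 96.7% of windows held fewer than that of HHEX, 80.4% fewer than that of FOXE1, 49.7% fewer than that of PAX8, 43.7% fewer than that of SLC5A5 and 41.1% fewer than that of TSHR. Among the windows not shown, DUOX1, which lay below the filter, had 30 (87.6% of windows held fewer). NKX2-1, which had no row, had 18 and 7, and DIO2 had 1 and 3. The order of the windows was not that of the transcripts, since PAX8, with a window at the median, was the most abundant of the genes. DNA methylation was not measured in this experiment.

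The libraries held 63824315 to 75828542 counted reads, so that 3 reads corresponded to 0.0397 to 0.0486 CPM (counts scaled to library size, here by the TMM method). SRPX2, whose mean of 0.407 FPKM lay under the filter used below, was counted 140, 157 and 263 times in the siSRPX2-1 libraries and 243, 335 and 308 times in the siControl libraries. The target was thus lower in each siSRPX2-1 library than in the siControl library of the same number (log2 fold change -0.71, SE 0.328), but did not pass the test (edgeR, unadjusted p = 0.0683 and adjusted p = 1). With the replicate number as a block its log2 fold change was -0.76 (unadjusted p = 0.0219, adjusted p = 0.835). Of the 13317 genes with a mean FPKM (fragments scaled by gene length and library size, a level that can be compared between genes) reaching 0.5, 0 passed an adjusted p of 0.05, which is 0% of those tested. An unadjusted p under 0.05 was reached by 66 (0.496%), and DESeq2 called 3 genes. With the replicate block 6 genes passed (0.0451%), and none of the 9 genes was among them.

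The 6 genes with a row lay at very different levels. PAX8 had a mean of 91.1 FPKM over the 6 libraries and ranked 323 of 31348 rows. FOXE1 followed with 11.2 FPKM (rank 3399) and HHEX with 1.54 FPKM (rank 10552), and each step of this order was larger than the spread between libraries: the ranges of neighbouring genes did not overlap. PAX8 was 8.13-fold above FOXE1, FOXE1 was 7.28-fold above HHEX, and HHEX was 11.3-fold above TG in mean FPKM. TG (0.137 FPKM, rank 17283), DUOX1 (0.0548 FPKM, rank 20475) and DIO2 (0.00611 FPKM) all lay below the filter of 0.5 FPKM. The ranges of TG and DUOX1 overlapped, as did those of DUOX1 and DIO2, although in each of the 6 libraries TG was above DUOX1 and DUOX1 above DIO2. The transcription factors that had a row therefore stood above the filter, and the synthesis genes that had one stood below it.

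**Figure D1:**
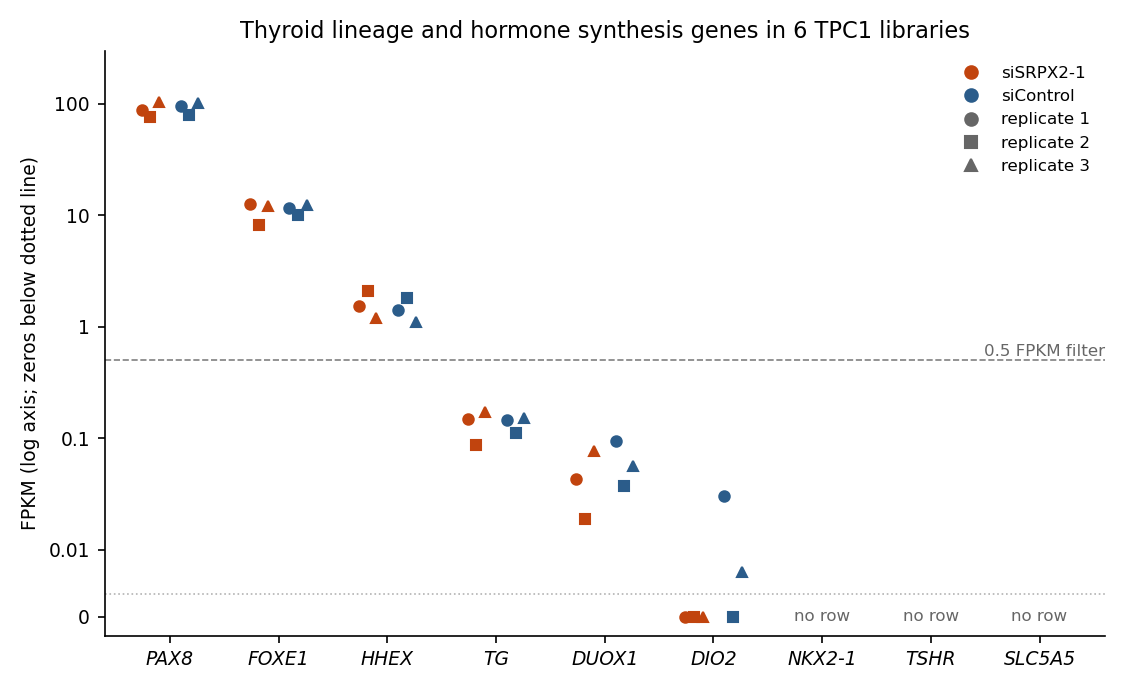
FPKM of the 9 genes (log axis) in each siSRPX2-1 library (orange) and siControl library (blue), with symbols for the replicate number, values of 0 below the dotted line and the filter of 0.5 FPKM as a dashed line. PAX8, FOXE1 and HHEX lie above the filter, TG, DUOX1 and DIO2 below it, and NKX2-1, TSHR and SLC5A5 had no row.

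PAX8, the paired box factor that specifies the follicular cell and activates TG and SLC5A5, lies on chromosome 2 from 113215997 to 113278921 on the minus strand (GRCh38). It was counted 54138, 45312 and 57227 times in the siSRPX2-1 libraries and 51267, 47743 and 60285 times in the siControl libraries. Its levels were 87.9, 76.9 and 103 FPKM after siSRPX2-1 and 96.6, 79.8 and 103 FPKM after siControl. Replicate 2 was the lowest library of both groups and replicate 3 the highest, and the groups overlapped. The log2 fold change was -0.087 (SE 0.180, 95% interval -0.52 to 0.34, unadjusted p = 0.645, adjusted p = 1), a difference smaller than the spread between replicates. In CPM PAX8 was lower in the siSRPX2-1 library in 3 of 3 same-numbered pairs, as were 16.9% of all tested genes, and with the block the log2 fold change was -0.084 (-0.22 to 0.048, unadjusted p = 0.180, adjusted p = 0.678).

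FOXE1, the forkhead factor needed for the thyroid bud to migrate and later a regulator of TG, is a single-exon gene on chromosome 9 from 97853226 to 97856717 on the plus strand. Its reads numbered 3724, 2302 and 3213 after siSRPX2-1 and 2909, 2844 and 3456 after siControl, or 12.8, 8.25 and 12.2 FPKM against 11.6, 10.0 and 12.4 FPKM. The lowest library of each group was again replicate 2, and the siControl values lay within the siSRPX2-1 range. The log2 fold change was -0.057 (SE 0.218, 95% interval -0.58 to 0.47, unadjusted p = 0.803, adjusted p = 1). One pair was higher and the others were lower after siSRPX2-1, and the value with the block was -0.078 (-0.28 to 0.13, unadjusted p = 0.406).

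HHEX, a homeobox factor that maintains the early thyroid primordium and is shared with liver and blood progenitors, lies on chromosome 10 from 92689955 to 92695647 on the plus strand. It was counted 329, 427 and 231 times after siSRPX2-1 and 259, 375 and 226 times after siControl. The levels were 1.55, 2.11 and 1.21 FPKM in siSRPX2-1 cells and 1.42, 1.82 and 1.12 FPKM in siControl cells. Here replicate 2 was the highest library of both groups, the reverse of PAX8 and FOXE1. HHEX was higher after siSRPX2-1 in 3 of 3 pairs, as were 15.5% of all tested genes, with a log2 fold change of 0.14 (SE 0.294, 95% interval -0.56 to 0.84, unadjusted p = 0.647, adjusted p = 1) and of 0.13 with the block (-0.27 to 0.53, unadjusted p = 0.479).

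The 3 factors that passed the filter thus gave 0 calls, with and without the block, and 0 of them had groups that did not overlap, against 3.24% of all tested genes. The intervals with the block reached -0.22 for PAX8, -0.28 for FOXE1 and 0.53 for HHEX on the log2 scale. Exact two-sided permutation tests of the CPM gave p = 0.6 for PAX8, p = 0.8 for FOXE1 and p = 0.7 for HHEX, where 3 libraries against 3 cannot go below 0.1.

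**Figure D2:**
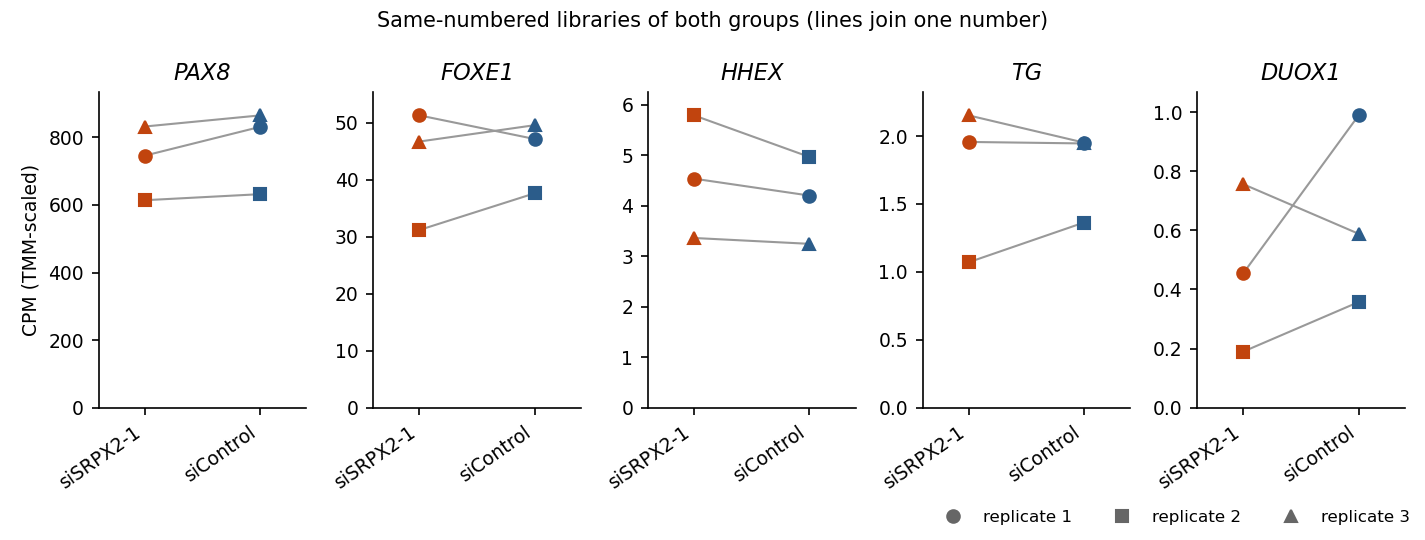
TMM-scaled CPM (linear axes from 0) of 5 genes in the siSRPX2-1 and siControl libraries, with a line joining the 2 libraries of each replicate number. The lines of PAX8 lie lower and those of HHEX higher at siSRPX2-1 in 3 of 3 pairs, while those of FOXE1, TG and DUOX1 run both ways; replicate 2 is lowest in each panel except HHEX, where it is highest.

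TG encodes thyroglobulin, the large secreted protein on which the hormones are built and the most abundant product of the normal follicular cell. Its gene lies on chromosome 8 from 132866958 to 133134899 on the plus strand. TG was counted 142, 79 and 148 times after siSRPX2-1 and 120, 103 and 136 times after siControl. These reads amount to 0.0867 to 0.172 FPKM, well under the filter, and replicate 2 was lowest in both groups. In the fit over all 31348 genes the log2 fold change was -0.026 (SE 0.367, 95% interval -0.89 to 0.84, unadjusted p = 0.946, adjusted p = 1). The ratio of the summed reads, scaled by TMM library size, was 0.989, with a 95% interval of 0.853 to 1.15 that covers counting error only.

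DUOX1, a dual oxidase of the apical membrane that supplies the peroxide for iodination, lies on chromosome 15 from 45129933 to 45165576 on the plus strand. Its reads were 33, 14 and 52 in the siSRPX2-1 libraries and 61, 27 and 41 in the siControl libraries. The groups overlapped, and replicate 2 was the lowest of each. The log2 fold change was -0.47 (SE 0.630, 95% interval -1.95 to 1.02, unadjusted p = 0.482, adjusted p = 1). The read ratio was 0.738, and its counting interval of 0.562 to 0.967 takes no account of the spread between libraries.

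DIO2, the deiodinase that activates T4 within cells, lies on chromosome 14 from 80197526 to 80387757 on the minus strand and was the lowest of the 6 genes. It had 0 reads in each siSRPX2-1 library and 17, 0 and 4 reads in the siControl libraries. Against a floor of 3 reads over the siSRPX2-1 group, DIO2 was at least 7.28-fold lower than in siControl cells, but 81.0% of the siControl reads came from replicate 1, and siControl replicate 2 was at 0 as well. The fit over all genes gave an unadjusted p of 0.0534 (adjusted p = 1) and with the block 0.0895 (adjusted p = 0.835), and the exact permutation test of its CPM gave p = 0.4. DIO2 thus passed none of these tests.

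NKX2-1, the homeobox factor shared by thyroid, lung and ventral forebrain, had no row in the table. The same held for TSHR, the G protein-coupled receptor of TSH, and for SLC5A5, the symporter that is the basis of radioiodine uptake. In GENCODE release 29 (GRCh38) NKX2-1 lies on chromosome 14 from 36516392 to 36521149 on the minus strand, TSHR on chromosome 14 from 80954989 to 81146302 on the plus strand, and SLC5A5 on chromosome 19 from 17871973 to 17895174 on the plus strand. Since 0 of the 31348 rows have 0 reads in all 6 libraries, the table holds no gene without reads, and whether these 3 genes received none cannot be told from it, so no upper limit is given for them. In bulk RNA, fewer cells with a transcript and less of it per cell cannot be told apart.

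Of 7 markers of follicular cells, PAX8, FOXE1 and HHEX passed the filter, TG had 1.07 to 2.15 CPM, and TSHR, SLC5A5 and NKX2-1 had no row. By these markers, 3 of the 4 lineage factors were expressed in the cells labelled as thyroid cancer, and of TG, TSHR and SLC5A5 TG alone had a row. Adipocyte markers were sought because of the label: ADIPOQ, FABP4, LEP and CIDEC had no row, and PPARG (2.93 FPKM, log2 fold change 0.011) alone passed the filter. Of the 6 markers of the C cell, the calcitonin cell of the thyroid, all had a row, and CALCA (mean 0.906 FPKM) alone passed the filter. Their summed reads were 76 to 236 after siSRPX2-1 and 100 to 592 after siControl. CALCA, the calcitonin gene, was at 0, 0 and 112 reads in the siSRPX2-1 libraries and at 408, 366 and 0 in the siControl libraries, an uneven pattern that did not pass the test (unadjusted p = 0.238), and its part in the values above was not tested. Of 6 lung markers, SFTPA1, SFTPB and SFTPC had no row, as had NKX2-1, which lung cells share, and the other 3 lay below the filter, with 0 to 34 summed reads after siSRPX2-1 and 20 to 24 after siControl. SFTPA2 had 6 reads in siControl replicate 1 and none elsewhere, and NAPSA had 29, 0 and 0 reads after siSRPX2-1 and 6, 5 and 0 after siControl. SCGB1A1, a secretoglobin of airway cells, had 5, 0 and 3 reads after siSRPX2-1 and 12, 15 and 24 after siControl, groups that did not overlap (edgeR over all genes, unadjusted p = 0.0491, adjusted p = 1). Groups did not overlap for 3.24% of the genes past the filter, and this share was not computed for genes below it. Markers of fibroblasts summed to 722 to 1844 reads after siSRPX2-1 and 885 to 2342 after siControl, those of leukocytes to 54 to 147 and 48 to 245, and those of endothelium to 20 to 47 and 19 to 75, so that the groups overlapped for each list.

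PAX8 is also a gene of kidney and Müllerian epithelium, and its paralogs could share reads with it. PAX2, its closest relative with PAX5 and a kidney factor, had 3.65 FPKM, and PAX5, the B cell factor, 3.09 FPKM. PAX8 exceeded PAX2 by 17.9- to 37.5-fold and PAX5 by 24.2- to 39.0-fold in FPKM across the 6 libraries. How reads that fit more than 1 of these genes were counted is not known. Whether reads of PAX8 were counted for PAX2 or PAX5, or the reverse, was not tested. PAX2 had 2132, 1048 and 1824 reads after siSRPX2-1 and 2479, 1341 and 2084 after siControl and was lower in 3 of 3 pairs, with a log2 fold change of -0.32 in the block (unadjusted p = 0.0109, adjusted p = 0.482). The kidney factor LHX1 was at 1.85 FPKM with a log2 fold change of 0.16, while WT1 and EMX2 had no row. The 6 kidney and Müllerian markers summed to 2509 to 3690 reads after siSRPX2-1 and 2860 to 4384 after siControl, and their part in the values of PAX8 and CDH16 was not tested.

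The antisense gene PAX8-AS1 overlaps PAX8 on the opposite strand and shares 685 exonic bases with it, 9.26% of the exonic bases of PAX8. It was counted 4916, 6377 and 6624 times in siSRPX2-1 libraries and 3676, 5760 and 7181 times in siControl libraries, and PAX8 exceeded it 21.3- to 41.9-fold in FPKM. The strand setting of the counting is not given in the sources used here, so reads of this stretch cannot be assigned to either gene with certainty. For the low genes an overlap weighs more: 6.31% of the exonic bases of DUOX1 are shared with the opposite-strand AC051619.6, which itself had 0 to 34 reads. TG shares 0 exonic bases with SLA, the gene within one of its introns.

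The genes most similar to each factor across the 6 libraries were, for PAX8, CCDC92 (Pearson r = 0.9998), the tight junction gene CLDN1 (r = 0.998) and the NADPH oxidase activator NOXA1 (r = 0.997), over the log2 CPM of 13317 genes. For FOXE1 they were MTCL1 (r = 0.999), ZNF862 (r = 0.997) and GMPR2 (r = 0.997), and for HHEX BPNT2 (r = 0.999), TNFRSF11A (r = 0.997) and TRIM55 (r = 0.995). Values this high were frequent: 536 genes exceeded 0.95 for PAX8, 285 for FOXE1 and 208 for HHEX. Between the genes described here, r was 0.86 for PAX8 with FOXE1, 0.92 for PAX8 with TG, 0.95 for FOXE1 with TG and -0.92 for PAX8 with HHEX. These are descriptions over 6 libraries in which same-numbered libraries deviated together.

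For 5 of the 6 genes with a row, the libraries that stood apart were those of replicate 2, in both groups alike. Both lay below the other 4 in CPM for PAX8 (log2 ratio of the means -0.39), FOXE1 (-0.50), TG (-0.72) and DUOX1 (-1.35), and above them for HHEX (0.49). Over all tested genes 27.9% lay below and 27.6% above in this way, so that PAX8 and FOXE1 on the lower side and HHEX on the upper side share their pattern with a large part of the table. No source says what a number marks.

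**Figure D3:**
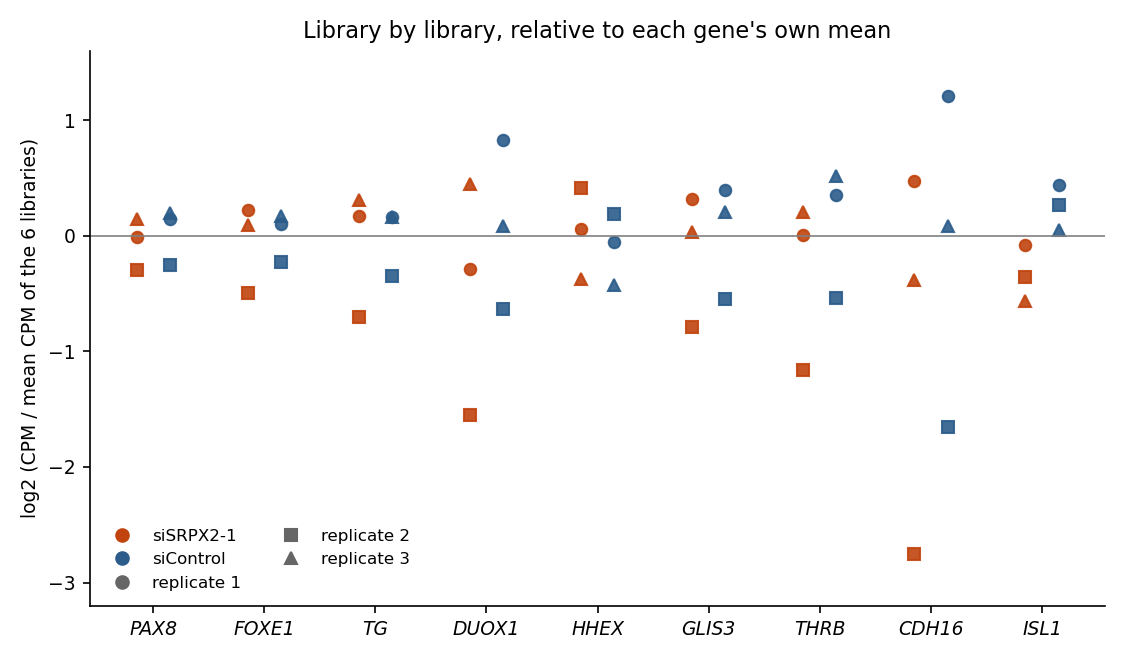
Log2 ratio of the CPM in each library to the gene's mean over the 6 libraries, for 5 of the genes and for GLIS3, THRB, CDH16 and ISL1, with siSRPX2-1 (orange) left of siControl (blue) and symbols for the replicate number. Replicate 2 (squares) is the lowest of both groups for PAX8, FOXE1, TG, DUOX1, GLIS3, THRB and CDH16 and the highest for HHEX, and the siSRPX2-1 points of ISL1 all lie below its siControl points.

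The wider pathway was followed in further lists, chosen with earlier results of these data known. With the 9 genes they hold 73 genes. Of these, 62 had a row and 40 passed the filter. After siSRPX2-1, 13 were higher and 27 lower in sign, with a median log2 fold change of -0.045, beside -0.0062 over all tested genes, and none passed the adjusted test with or without the block. With the block 7 genes had an unadjusted p under 0.05, all of them lower (17.5% of the 40, against 4.89% lower and 4.32% higher among all tested genes, 9.21% in both directions). Both replicate 2 libraries lay below the others for 19 of the 40 and above for 9, against 27.9% and 27.6% of all tested genes. They lay below for GLIS3, LGMN, ADCY9, RAPGEF3, THRB and CDH16, but not for ISL1. Whether this pattern bears on the 7 was not tested. Leaving out replicate 2 in both groups kept ADCY9, THRB and CDH16, or 3 of the 40, lower at an unadjusted p under 0.05. Among all tested genes 3.87% were lower at that p in this fit. The share that was higher was not computed. The other 4 of the 7 did not reach that threshold in this fit of 4 libraries. Their log2 fold changes in it were -0.12 for GLIS3, -0.57 for ISL1, -0.19 for LGMN and -0.11 for RAPGEF3. The 7 were picked for being lower in the fit over all pairs, and this fit reuses the remaining pairs. Their sign in it is therefore no separate evidence.

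**Figure D4:**
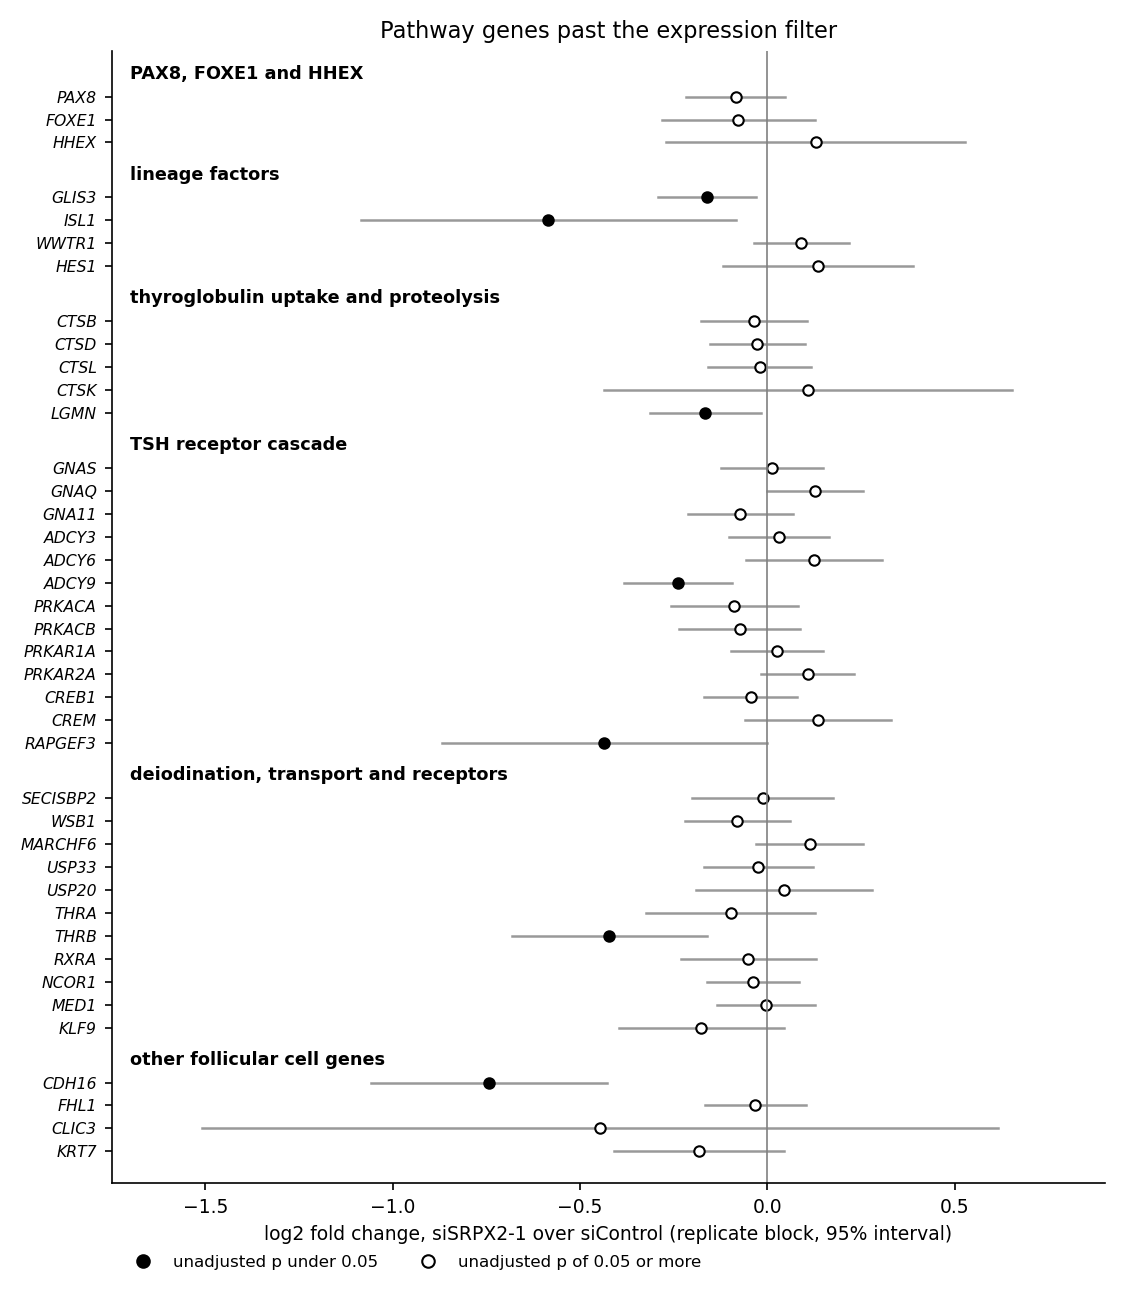
Log2 fold change (siSRPX2-1 over siControl, edgeR with the replicate block) with its 95% interval for the 40 tested genes, grouped by list, filled where the unadjusted p was under 0.05. The 7 filled points (GLIS3, ISL1, LGMN, ADCY9, RAPGEF3, THRB and CDH16) all lie on the lower side; none passed the adjusted test.

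Among 8 further lineage factors, all had a row and 4 passed the filter, 2 higher and 2 lower. WWTR1 (29.5 FPKM), the coactivator TAZ that works with PAX8 and NKX2-1, and HES1 (4.99 FPKM), a Notch effector, had log2 fold changes of 0.098 and 0.13 and were not called. GLIS3 (6.73 FPKM), the zinc finger factor whose loss causes congenital hypothyroidism, was counted 8203, 3892 and 6411 times after siSRPX2-1 and 7372, 4712 and 7282 times after siControl. It was lower in 3 of 3 pairs by the normalized values, with a log2 fold change in the block of -0.16 (95% interval -0.29 to -0.031, unadjusted p = 0.0216, adjusted p = 0.501). ISL1, a LIM homeobox gene of the pharyngeal mesoderm and thyroid bud, had 166, 140 and 113 reads after siSRPX2-1 against 203, 220 and 175 after siControl. Its groups did not overlap in CPM, which held for 3.24% of all tested genes in either direction. The log2 fold change was -0.58 (unadjusted p = 0.0629, adjusted p = 1), with the smallest permutation p that 3 against 3 allow (exact, two-sided, p = 0.1).

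The genes of iodide handling and hormone synthesis were low or had no row. Of 10 genes beside the named ones, 0 passed the filter. The dual oxidase maturation factor DUOXA2, the deiodinating enzyme IYD, the chloride channel ANO1, SLC5A8 and the potassium channel subunit KCNE2 had no row. DUOX2 had 7, 7 and 3 reads after siSRPX2-1 and 0, 0 and 7 after siControl, and the iodide exporter pendrin, SLC26A4, had 55, 53 and 73 against 36, 86 and 24. The 10 genes together summed to 0.169 to 0.335 FPKM in siSRPX2-1 libraries and 0.179 to 0.252 FPKM in siControl libraries, below HHEX alone.

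The proteases that release hormone from thyroglobulin, which are general lysosomal enzymes, were in contrast abundant. CTSD (129 FPKM) and CTSB (102 FPKM) exceeded PAX8 in mean level, and CTSL (38.0 FPKM), LGMN (13.0 FPKM) and CTSK (1.77 FPKM) also passed the filter, while the uptake receptor LRP2 had no row. Of the 5 tested, 1 was higher and 4 were lower in sign, with a median log2 fold change of -0.023. LGMN, the asparaginyl endopeptidase legumain, was counted 5209, 2819 and 3419 times after siSRPX2-1 and 5378, 3125 and 3715 times after siControl (block log2 fold change -0.17, unadjusted p = 0.0321, adjusted p = 0.522).

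Transcripts of the G protein and cyclic AMP components listed downstream of the TSH receptor were present, although TSHR had no row. Signaling itself was not measured. All 15 genes had a row and 13 passed the filter, with 7 higher and 6 lower and a median log2 fold change of 0.0050. The G protein subunits GNAS (53.5 FPKM), GNAQ (14.6 FPKM) and GNA11 (11.5 FPKM) and the protein kinase A subunits PRKAR1A (29.8 FPKM), PRKAR2A (10.7 FPKM) and PRKACA (8.88 FPKM) were the most abundant, and none was called. The groups of GNAQ did not overlap in CPM, with the siSRPX2-1 libraries higher. Groups did not overlap for 3.24% of all tested genes in either direction. The log2 fold change of GNAQ was 0.13 (edgeR, unadjusted p = 0.248, and 0.0513 with the block), and the exact permutation test gave p = 0.1. ADCY9, an adenylyl cyclase, had 5790, 2420 and 4272 reads after siSRPX2-1 and 5463, 3154 and 5049 after siControl. Its normalized value was lower in 3 of 3 pairs, with a block log2 fold change of -0.24 (95% interval -0.38 to -0.095, unadjusted p = 0.00497, adjusted p = 0.430). RAPGEF3, the cyclic AMP-activated exchange factor EPAC1, was lower in 2 of 3 pairs, with a value of -0.44 that barely reached an unadjusted p of 0.0490.

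In deiodination, hormone transport and hormone response, 11 of 16 genes passed the filter, 2 higher and 9 lower in sign, with a median log2 fold change of -0.040. WSB1 (42.2 FPKM), the ubiquitin ligase subunit that targets DIO2, was abundant where DIO2 was not. It moved with the replicate number, both replicate 2 libraries being below the others (log2 ratio of the means -1.72). The corepressor NCOR1 (8.98 FPKM), the deubiquitinase USP33 (13.1 FPKM), the ubiquitin ligase MARCHF6 (11.3 FPKM) and the Mediator subunit MED1 (9.36 FPKM) were not called. Of the hormone receptors, THRA had 2.27 FPKM and a log2 fold change of -0.10. THRB (0.953 FPKM) had 862, 389 and 939 reads after siSRPX2-1 and 930, 615 and 1176 after siControl, with a block log2 fold change of -0.42 (95% interval -0.68 to -0.16, unadjusted p = 0.00565, adjusted p = 0.439). The deiodinase DIO3 and the transporter SLCO1C1 had no row.

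The thyroid differentiation score used for tumors was followed over 15 of its genes, of which 5 (FOXE1, GLIS3, PAX8, THRA and THRB) passed the filter and 4 had no row. All 5 tested genes were lower in sign, with a median log2 fold change of -0.10, but 0 passed the adjusted test. The score genes with a row below the filter did not all go that way. In the fit over all genes DUOX2 and SLC26A4 were higher in sign, and TG, DUOX1, DIO2 and the deiodinase DIO1 were lower. Of the 5, 4 were lower in 3 of 3 pairs, against 16.9% of all tested genes. Both replicate 2 libraries lay below the others for 4 of them, against 27.9% of all tested genes. Each of the 5 was already counted above, so this list adds no separate genes. Of 8 other genes of the follicular cell, 4 passed the filter and were lower in sign, with a median of -0.27. CDH16, a cadherin of kidney and thyroid epithelium, had 1144, 124 and 598 reads after siSRPX2-1 and 1616, 271 and 837 after siControl. Within each group it ranged more widely than between them, replicate 2 being far below the other libraries, and without the block its log2 fold change of -0.68 did not pass the test (unadjusted p = 0.483). Within pairs it was lower 3 of 3 times, with a block log2 fold change of -0.74 (95% interval -1.06 to -0.43, unadjusted p = 0.000596, adjusted p = 0.274). FHL1 (23.6 FPKM), a LIM domain protein, and KRT7 (5.49 FPKM), an epithelial keratin, had log2 fold changes of -0.045 and -0.15.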

How the data were processed

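The table deposited by the authors holds, for each gene and library, a raw read count and an FPKM value from StringTie 2.1.6 and ballgown. DESeq2 and edgeR are named in the submitters' notes as well. The aligner, build, annotation release, counting step and strand setting were not given in the sources used here. GENCODE release 29 holds 30496 of the 31348 IDs, 30433 of them starting no more than 100000 bases away, and coordinates are therefore stated on GRCh38. Members and lists were chosen with earlier results of these data known, and some listed genes are not reported here.

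Counts were tested with edgeR 4.0.16 in R 4.3.3 (TMM, quasi-likelihood, Benjamini-Hochberg) over 13317 genes whose mean FPKM reached 0.5; genes below it take their values from the same fit over all 31348 genes. Named were the 9 genes, SRPX2, up to 6 genes of each list by mean FPKM, genes with an unadjusted p under 0.05 in either fit, defining genes with few reads or no row, and the 3 genes most alike to each factor. LPL and SCGB1A1 were the only listed genes under that p without the block, both among marker lists and below the filter (unadjusted p = 0.0486 and 0.0491). DUOX2, SLC26A4, LHX1, SLA and AC051619.6 were named after their values were seen. Permutation tests were exact and two-sided. Intervals and floors of reads cover counting error only.

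Deviations from the group mean were correlated between libraries of the same number (r = 0.669, 0.844 and 0.735), so the numbers were taken as paired. With another number r was at most 0.129. Subtracting the group mean itself lowers that r where same-numbered libraries agree, so it is no separate evidence. The replicate block is given beside the results, and what a number marks is not stated. Promoter windows are from RefSeq (GRCh38.p14) and matched 8 of the 9 genes. Alternatives were DESeq2 1.42.0, other scalings and filters, limma 3.58.1 on log2 FPKM with pseudocounts of 1 and 0.1, the replicate block, and leaving out libraries. Leaving out replicate 2 in both groups was added after the data were seen. Figures were drawn with matplotlib 3.10.9.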

Additional observations from a re-analysis of the deposited data

How the results depend on the processing

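The count of genes called over the table was 0 with edgeR, 3 with DESeq2 and 6 with the replicate block; none of these was among the 9 genes under any alternative run. Other scalings, filters and limma on log2 FPKM left PAX8, FOXE1, HHEX, TG and DUOX1 uncalled and of the same sign wherever they were run. Leaving out 1 library, or replicate 2 in both groups, gave log2 fold changes of -0.21 to 0.024 for PAX8, -0.20 to 0.13 for FOXE1, -0.067 to 0.32 for HHEX, -0.21 to 0.21 for TG and -0.99 to -0.026 for DUOX1. The sign turned without siSRPX2-1 replicate 2 for PAX8 (0.024), FOXE1 (0.13), HHEX (-0.067) and TG (0.21), without siControl replicate 3 for FOXE1 (0.023), HHEX (-0.0069) and TG (0.053), and without siControl replicate 1 for TG (0.053). Without replicate 2 in both groups it turned for FOXE1 (0.019) and TG (0.079), and stayed for PAX8 (-0.10), HHEX (0.085) and DUOX1 (-0.38). Leaving out a single library makes the replicate numbers uneven between the groups. The replicate block changed no call of the 9 genes. Depth limits TG, DUOX1 and DIO2, which rest on at most 148, 61 and 17 reads in a library.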
